A study of Fragaria hybrid cultivar with 9 samples.

Results

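Plants control their own silencing machinery with microRNAs (miRNAs). In Arabidopsis, miR162 directs cleavage of the DCL1 transcript, which encodes the Dicer-like enzyme that cuts miRNAs from their hairpins, miR168 targets AGO1, the Argonaute protein that carries most miRNAs, and miR403 targets AGO2, a related Argonaute known for antiviral silencing. The targets of miR162 and miR168 thus encode proteins that make or carry most miRNAs, a feedback loop that is conserved in many flowering plants. A hairpin gives a duplex of a 5p and a 3p strand, of which the strand loaded into the Argonaute accumulates (the guide) while its partner is mostly degraded (the star strand). In miR162 and miR403 the known guide is the 3p strand and in miR168 it is the 5p strand.

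The members of these families were followed through petal development of the pink-flowered strawberry 'Sijihong', a hybrid cultivar from Fragaria and Potentilla. All libraries came from untreated petals of this cultivar, sampled from plants in open ground as young buds (PF_L), at the beginning of coloration (PF_Z) or as big buds (PF_D). There were 3 biological replicates per stage, which made 9 small RNA libraries, and the labels do not say which or how many plants went into a replicate. Members were all entries of the deposited table whose name holds miR or MIR followed directly by the number of the family, with each sequence counted once. This gave 14 of the 1660 distinct sequences in the table, under 15 names: 6 of miR162, 7 of miR168 and 1 of miR403. The families were recognised by name only, since the names come from miRBase entries of other species (rco, castor bean; mdm, apple; csi, sweet orange; osa, rice; bra, field mustard), and a suffix such as R+2 or 1ss20AG states how the strawberry read differs from that entry. Petal identity could not be checked against marker genes in a table of miRNAs.

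Values are normalized reads as the authors deposited them. The worth of a single read was read off as the most common value above 0 in each library. It was 0.713 to 0.882 normalized reads for PF_L libraries, 1.05 to 1.09 for PF_Z and 1.07 to 1.27 for PF_D. A value near 1 thus stands for about 1 read. Reads recovered in this way summed to 1009378 to 1703973 per library over all 1876 lines of the table, with repeated lines counted each time. With each sequence counted once they summed to 751966 to 1240039 per library. Stages were compared with limma on the log2(value + 1) scale, which understates changes of scarce miRNAs, over the 1554 distinct entries that had reads in 3 or more libraries. An entry was called changed at a p under 0.05 after Benjamini-Hochberg adjustment, and a log2 fold change is the later stage minus the earlier one. Of the 14 members 11 were tested. Petals hold several cell types, so fewer cells of a type and less RNA per cell cannot be told apart in any value below.

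The sequences that carry most of the reads, or that passed a test, are shown here as deposited, 5′ to 3′ with T for U. Capitals mark the seed, bases 2 to 8 from the 5′ end.
rco-miR162: tCGATAAAcctctgcatccag
mdm-miR162a_1ss20AG: tCGATAAAcctctgcatccgg
osa-miR162a_R+2: tCGATAAAcctctgcatccagtt
rco-MIR162-p5: gGAGGCAGcggttcatcgatc
mdm-miR168a: tCGCTTGGtgcaggtcgggaa
bra-miR168a-5p_L+2: tCTCGCTTggtgcaggtcgggaa
csi-miR168-3p: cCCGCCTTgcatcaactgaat
bra-miR168a-3p: cCCGCCTTgtatcaagtgaat
htu-miR403a: tTAGATTCacgcacaaactcg

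The first 3 miR162 sequences share 1 seed. Counted from the 5′ end of rco-miR162, mdm-miR162a_1ss20AG differs by A20G alone, and osa-miR162a_R+2 is the whole of rco-miR162 with 2 further bases at its 3′ end, 23 nucleotides in place of 21. In miR168 the longer form sits at the other end. bra-miR168a-5p_L+2 holds all 21 bases of mdm-miR168a behind 2 further bases at its 5′ end, so its seed is shifted and matches no other member. bra-miR168a-3p has the seed of csi-miR168-3p and differs from it by C10T and C16G, counted from the 5′ end of csi-miR168-3p. Set against each other with the 2-base 3′ overhangs that Dicer-like enzymes leave, rco-MIR162-p5 and rco-miR162 formed 16 Watson-Crick pairs over 19 positions with 3 mismatches, and mdm-miR168a and csi-miR168-3p formed 14 Watson-Crick pairs, 3 G:U pairs and 2 mismatches over 19 positions.

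These families were abundant through 3 sequences and otherwise scarce. By mean over the 9 libraries mdm-miR168a ranked 8 among the 1660 distinct sequences, rco-miR162 ranked 25 and csi-miR168-3p ranked 30, whereas htu-miR403a ranked 1168. The sequence rco-miR162 made up 94.8% to 97.3% of the miR162 total of a library. In miR168, mdm-miR168a made up 80.6% to 84.5% and csi-miR168-3p 15.2% to 19.3% of the total. The most abundant strand in these petals was thus the 3p strand in miR162 and the 5p strand in miR168, the same strands that act as guides in Arabidopsis. Of the other members, 4 had reads in every library and 7 never passed 5 reads in any library.

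**Figure D1:**
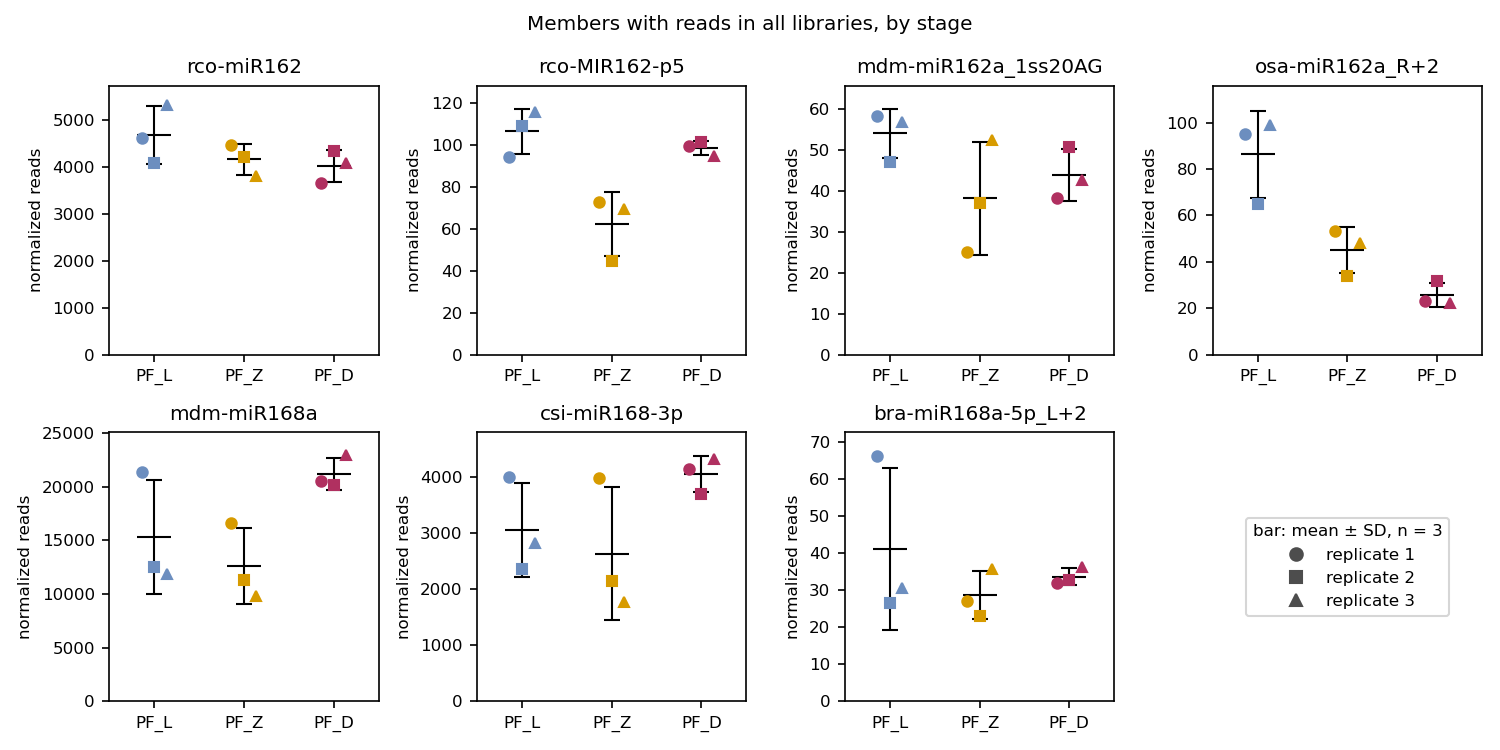
Normalized reads (y axis, from 0) of the 7 members with reads in all 9 libraries, by stage (x axis), with a point for each library and the mean ± SD of 3 replicates as bars. osa-miR162a_R+2 steps down from stage to stage with no overlap between stages, and the PF_L and PF_Z points of mdm-miR168a and csi-miR168-3p are spread widely because replicate 1 lies above the others.

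The regulator of AGO1 was most abundant in big buds by mean, but no change of miR168 between stages passed the test on the deposited values. mdm-miR168a, the 5p guide, had 21428, 12561 and 11868 normalized reads in the replicates of PF_L, 16614, 11347 and 9832 in PF_Z, and 20564, 20155 and 22967 in PF_D. All 3 big bud libraries lay above all PF_Z libraries, while PF_L replicate 1 lay among the big bud values and the other PF_L libraries well below them. From PF_Z to PF_D the mean was 1.69-fold higher, a log2 fold change of 0.79 (standard error 0.26, 95% interval 0.23 to 1.34) with an adjusted p of 0.107 in limma. Between PF_L and PF_D it had a log2 fold change of 0.53 (interval -0.03 to 1.08, limma adjusted p = 0.184), and from PF_L to PF_Z it was -0.26 (interval -0.81 to 0.29, limma adjusted p = 0.692).

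The star strand csi-miR168-3p went the same way as its guide. It had 3985, 2351 and 2825 normalized reads in PF_L, 3976, 2140 and 1772 in PF_Z, and 4138, 3698 and 4317 in PF_D. The big bud libraries were close together, and replicate 1 of both earlier stages reached their level. Its log2 fold changes were -0.27 from PF_L to PF_Z, 0.71 from PF_Z to PF_D and 0.44 from PF_L to PF_D, with adjusted p of 0.712, 0.180 and 0.307 in limma. Replicate 1 of PF_Z decided the call of both strands: without it mdm-miR168a rose from PF_Z to PF_D by 1.0 on the log2 scale (limma adjusted p = 0.0236) and csi-miR168-3p by 1.05 (limma adjusted p = 0.0164). This library is shown in the plot of levels by stage as the highest PF_Z point of both strands.

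The scaling of the libraries also decided what miR168 did between the outer stages. Equal totals were taken over all 1876 lines of the table, with repeated lines counted each time. Totals with each sequence counted once were not tried, so results for equal totals hold for this way of counting alone. With every library scaled to such an equal total, mdm-miR168a had a log2 fold change of -0.08 between PF_L and PF_D (limma adjusted p = 0.814). Scaled to the valid reads that the study lists, it was 1.12 (limma adjusted p = 0.0188). For csi-miR168-3p these values were -0.17 and 1.04, with limma adjusted p of 0.625 and 0.0358. Between the same stages, the median log2 fold change of the 517 entries with a mean of at least 5 was -0.09 on the deposited values. It was -0.67 with equal totals and 0.44 with valid reads. Relative to the median entry, mdm-miR168a thus stood higher in PF_D under each of them. A scaling shifts all entries of a library nearly alike, so this could hardly differ between the scalings and is no further test of a rise. From PF_Z to PF_D the direction of both strands was upward under all 4 scalings tried, by 0.33 to 1.09 for mdm-miR168a and 0.25 to 1.01 for csi-miR168-3p, and none of these passed the test.

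The guide of miR162, the regulator of DCL1, did not pass the test in any comparison of the deposited values. rco-miR162 had 4627, 4085 and 5320 normalized reads in PF_L, 4470, 4214 and 3808 in PF_Z, and 3657, 4334 and 4075 in PF_D. The stages overlapped in every pair. Its log2 fold changes were -0.16 from PF_L to PF_Z (interval -0.60 to 0.27), -0.05 from PF_Z to PF_D (interval -0.49 to 0.39) and -0.21 from PF_L to PF_D (interval -0.65 to 0.22), with limma adjusted p of 0.780, 0.920 and 0.505. The intervals leave room for a change of up to 0.65 on the log2 scale. With equal totals the value from PF_L to PF_D was -0.82 (limma adjusted p = 0.00622), and with valid reads its sign turned to 0.39 (limma adjusted p = 0.374).

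The longer 3′ form of this guide did change. osa-miR162a_R+2 had 95.3, 64.9 and 99.0 normalized reads in PF_L, 53.3, 33.8 and 48.3 in PF_Z, and 22.9, 31.6 and 22.4 in PF_D. The stages did not overlap in any pair, with young buds highest and big buds lowest. From PF_L to PF_D its mean fell 3.37-fold, a log2 fold change of -1.71 (standard error 0.32, interval -2.37 to -1.04, limma adjusted p = 0.00144), and it was lower in all 3 big bud libraries. It fell under the 4 scalings and with edgeR and DESeq2 on recovered reads, but the size depended on the scaling, with -2.30 for equal totals (limma adjusted p = 0.000165) and -1.12 for valid reads (limma adjusted p = 0.0237). The steps from PF_L to PF_Z (-0.92, limma adjusted p = 0.194) and from PF_Z to PF_D (-0.78, limma adjusted p = 0.188) did not pass the test, while DESeq2 called the first of them (-0.99, adjusted p = 0.0460).

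Because the longer form and the 21-nucleotide rco-miR162 were read in the same libraries, their ratio does not depend on the scaling. The ratio of osa-miR162a_R+2 to rco-miR162 was 2.06%, 1.59% and 1.86% in PF_L, 1.19%, 0.801% and 1.27% in PF_Z, and 0.627%, 0.729% and 0.549% in PF_D. No library of a stage overlapped with those of another stage, and the means were 1.84% ± 0.236, 1.09% ± 0.250 and 0.635% ± 0.0901 (SD, n = 3 per stage). An exact permutation test of F over stages, in which the 9 libraries can be split into 3 stages of 3 in 1680 ways, gave p = 0.00357, the smallest it can give, and 0.0143 after Benjamini-Hochberg adjustment over the 4 ratios taken up after their values had been seen. Leaving out each library in turn gave adjusted p of 0.0143 to 0.0429 in the same exact test. As the ratio was chosen for the fall of its numerator, this test is not independent of the one above.

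The other 3p variant of miR162 did not pass the test in any comparison. mdm-miR162a_1ss20AG had 58.2, 47.1 and 56.9 normalized reads in PF_L, 25, 37.0 and 52.5 in PF_Z, and 38.2, 50.8 and 42.6 in PF_D, with overlap in every pair of stages. Its log2 fold changes were -0.55, 0.25 and -0.30 in the order PF_L to PF_Z, PF_Z to PF_D and PF_L to PF_D, with limma adjusted p of 0.468 to 0.732. Its ratio to rco-miR162 averaged 1.16% ± 0.0945 in young buds, 0.939% ± 0.413 at the beginning of coloration and 1.09% ± 0.0726 in big buds (SD, n = 3), with an adjusted p of 0.493 in the exact permutation test. Without PF_Z replicate 3 that p was 0.0238, since the other PF_Z libraries held the lowest ratios (0.559% and 0.879%).

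The star strand of miR162 was lowest when coloration began. rco-MIR162-p5 had 94.4, 109 and 115 normalized reads in PF_L, 72.8, 44.7 and 69.3 in PF_Z, and 99.4, 102 and 94.9 in PF_D. Every PF_Z library lay below every library of the other stages, and PF_L and PF_D overlapped. Its log2 fold changes of -0.79 from PF_L to PF_Z (standard error 0.28, limma adjusted p = 0.203) and 0.69 from PF_Z to PF_D (standard error 0.28, limma adjusted p = 0.188) did not pass the test. With DESeq2 on recovered reads the first of these was called (-0.84, adjusted p = 0.0490). These values rest on 41 to 67 reads per library in PF_Z.

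Set against its guide within each library, the star strand of miR162 differed between stages in the exact test, although most single libraries decided the call. There were 49.0, 37.4 and 46.1 normalized reads of rco-miR162 per normalized read of rco-MIR162-p5 in PF_L, 61.4, 94.4 and 55.0 in PF_Z, and 36.8, 42.7 and 43.0 in PF_D. The mean ratio was 70.2 ± 21.1 in PF_Z, against 44.2 ± 6.02 in PF_L and 40.8 ± 3.48 in PF_D (SD, n = 3), and the PF_Z libraries lay above all others. The exact permutation test of F over the stages gave p = 0.0143, or 0.0286 after adjustment over the 2 families with both strands listed. This call was lost without any of PF_L replicates 1, 2 and 3 (adjusted p = 0.136, 0.05 and 0.129, exact test), PF_Z replicate 2 (0.0929) or PF_D replicates 1, 2 and 3 (0.136, 0.107 and 0.0929).

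In miR168 no difference between stages was detected in the proportion of the guide to its star. The ratio of mdm-miR168a to csi-miR168-3p was 5.38, 5.34 and 4.20 in PF_L, 4.18, 5.30 and 5.55 in PF_Z, and 4.97, 5.45 and 5.32 in PF_D. The stage means were 4.97 ± 0.669, 5.01 ± 0.731 and 5.25 ± 0.248 (SD, n = 3), and the stages overlapped. The exact permutation test gave p = 0.854, also after adjustment over the same 2 families. Whether the stages affect the strands of miR162 and miR168 differently was not tested.

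**Figure D2:**
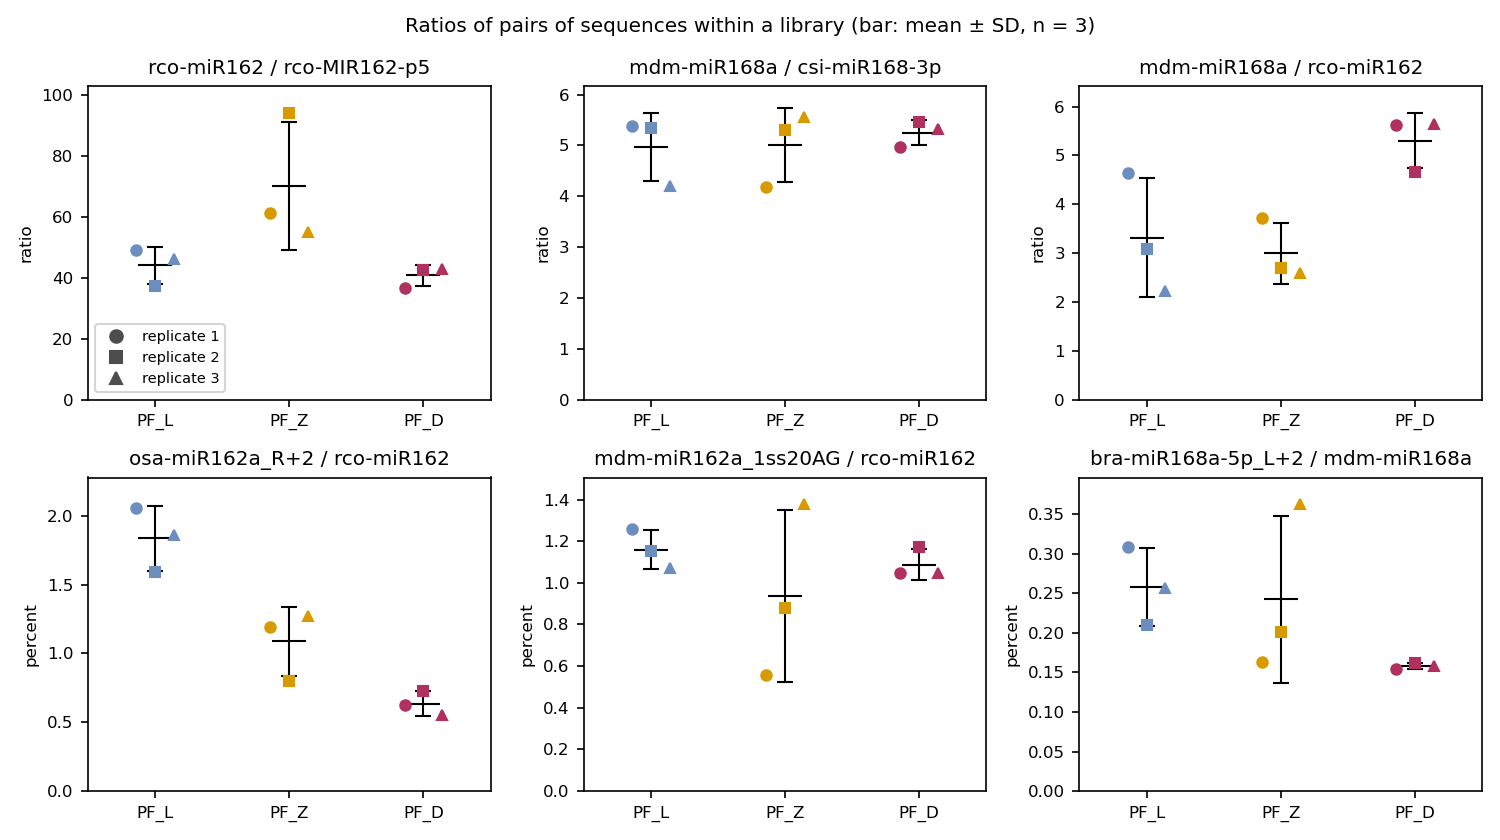
Ratios of pairs of member sequences within each library (y axes, from 0, as a ratio in the upper row and in percent in the lower row) by stage (x axis), with a point for each library and mean ± SD of 3 replicates as bars. The 23-nucleotide form of miR162 falls from 1.84% to 0.635% of rco-miR162, the strand ratio of miR162 is highest in PF_Z, and that of miR168 stays near 5 at every stage.

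The form of miR168 with 2 further bases at its 5′ end, bra-miR168a-5p_L+2, stood out in PF_L replicate 1. It had 66.2, 26.4 and 30.5 normalized reads in PF_L, 27.2, 22.9 and 35.7 in PF_Z, and 31.9, 32.7 and 36.2 in PF_D. The same library also had the highest PF_L value of mdm-miR168a and csi-miR168-3p, and all stages overlapped. Its log2 fold changes lay between -0.41 and 0.25, with limma adjusted p of 0.647 to 0.794. As a share of mdm-miR168a it made up 0.158% ± 0.00376 in PF_D, against 0.259% ± 0.0493 in PF_L and 0.243% ± 0.106 in PF_Z (SD, n = 3), with every big bud library below every earlier one, and the exact permutation test gave an adjusted p of 0.195. Without PF_Z replicate 3, which held the highest share (0.363%), that adjusted p was 0.0238.

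Between the families, the ratio of the regulator of AGO1 to that of DCL1 had its highest mean in big buds, but this did not pass the test. There were 4.63, 3.07 and 2.23 normalized reads of mdm-miR168a per normalized read of rco-miR162 in PF_L, 3.72, 2.69 and 2.58 in PF_Z, and 5.62, 4.65 and 5.64 in PF_D. All big bud libraries lay above all earlier ones, although PF_D replicate 2 exceeded PF_L replicate 1 by little. The exact permutation test gave p = 0.0893 and 0.179 after adjustment over the 4 ratios, and leaving out single libraries gave adjusted p of 0.05 to 0.338. Summed over their sequences, the miR168 total averaged 25315 ± 1791 normalized reads in PF_D, 18385 ± 6149 in PF_L and 15257 ± 4736 in PF_Z. The miR162 total was 4190 ± 352, 4926 ± 643 and 4310 ± 323 in the same order of stages (SD, n = 3).

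The remaining calls concern sequences at the limit of detection. htu-miR403a, the sole member of the family that targets AGO2, had 1.76, 2.85 and 1.65 normalized reads in PF_L, from 2, 4 and 2 reads. In PF_Z it had 1.09, 2.18 and 1.05, from 1, 2 and 1 reads, and it was at 0 in all 3 libraries of PF_D. For a count of 0, the floor used here was 3 reads over the libraries of a stage. Against it, the mean of htu-miR403a was at least 1.82-fold higher in PF_L than in PF_D. This bound takes the PF_L mean as exact and holds for the deposited scaling alone. PF_L libraries had 14105524 to 16131629 valid reads and PF_D libraries 6228366 to 7581963. Between PF_L and PF_D the fit gave a log2 fold change of -1.61 (standard error 0.49, limma adjusted p = 0.0350). The call was lost with scaling to valid reads (limma adjusted p = 0.0571), with edgeR (adjusted p = 0.0599), with a pseudocount of 5 (limma adjusted p = 0.0580), and without any single library of PF_L (0.0698 to 0.0841) or PF_D (0.0824 to 0.0846). Without a PF_Z library it was kept, with a lowest limma adjusted p of 0.0329.

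bra-miR168a-3p was seen in young buds only, with 4.41, 3.57 and 3.30 normalized reads from 5, 5 and 4 reads, and it was at 0 in all 6 libraries of the later stages. Against the floor of 3 reads over a stage, its deposited mean was at least 3.50-fold higher in PF_L than in PF_Z. Relative to PF_D it was at least 3.27-fold higher. These bounds have the limits given for the floor above. bra-miR168a-3p passed the filter of reads in 3 libraries only through PF_L, so the filter itself favoured a difference, and its calls are given as a description. In both comparisons the fitted log2 fold change was -2.24 (standard error 0.44), with limma adjusted p of 0.0117 to PF_Z and 0.00221 to PF_D, and 0.0125 and 0.00236 in a fit of all entries without that filter. The call to PF_Z was lost with edgeR (adjusted p = 0.0842), in a fit of these stages alone (limma adjusted p = 0.0678) and without PF_Z replicate 2 (0.0800). The much more abundant csi-miR168-3p, which has the same seed and differs from it at the 2 positions given above, summed to 11239 reads in PF_L against 14 of bra-miR168a-3p.

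The other members rested on single reads. The 22-nucleotide aau-miR168_L-3R+1_1ss23TC had 2 reads each in PF_Z replicate 2, PF_D replicate 1 and PF_D replicate 3 and none elsewhere, and 18 of its bases are the reverse complement of csi-miR168-3p, so it reads as the opposite strand of that sequence. The 18-nucleotide sequence listed both as csi-MIR162-p3_2ss5TG17CT and as csi-MIR162-p5_2ss5TG17CT had values worth 3, 1.5 and 0.5 reads in PF_L, 0.5 in PF_Z replicate 2 and none elsewhere (limma adjusted p = 0.0838 from PF_L to PF_D). Not tested, with reads in fewer than 3 libraries, were csi-miR162-5p_L-1_1ss15CG (2 reads in all), csi-miR168-3p_2ss20AC21TA (1 read) and sly-MIR168b-p3_1ss5TG (4 reads).

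**Figure D3:**
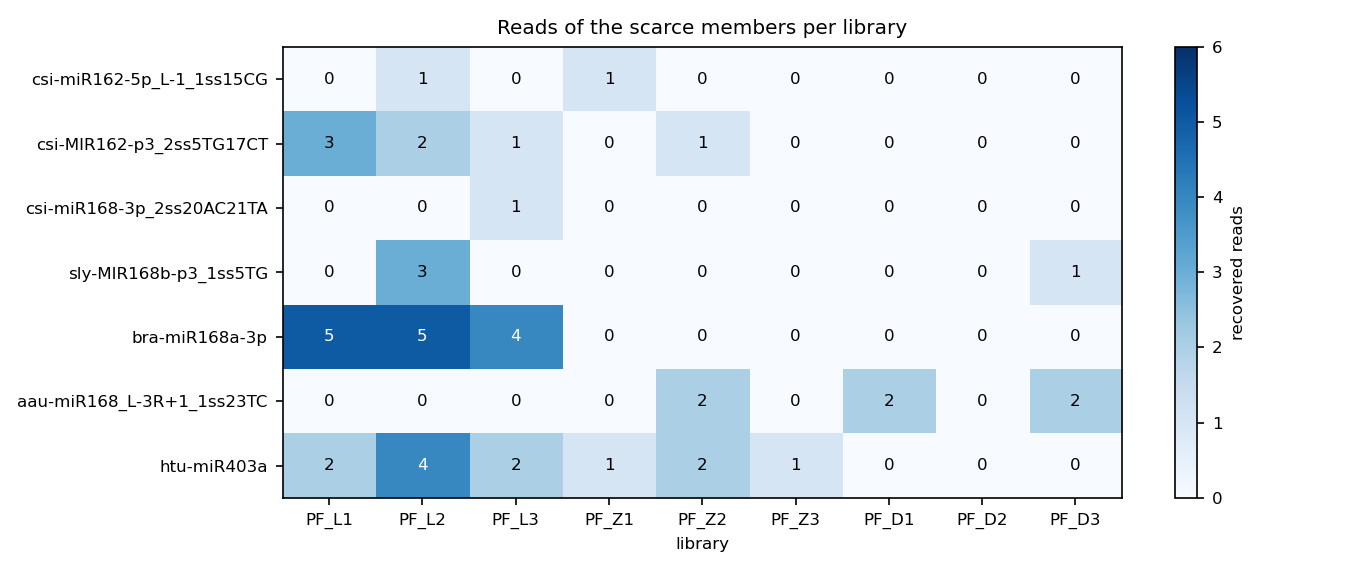
Recovered reads of the 7 scarce members (rows) in each library (columns), with the count, rounded up to whole reads, printed in each cell and a color scale from 0 to 6 reads. bra-miR168a-3p has 4 or 5 reads in each PF_L library and none later, and htu-miR403a has 1 to 4 reads in PF_L and PF_Z libraries and none in PF_D.

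The calls of the 11 tested members are given here beside the share over all tested entries. From PF_L to PF_Z, 1 of 11 tested members was called (bra-miR168a-3p, lower), where 1.16% of all tested entries were called and 0.579% were called lower. This sequence entered the test only through the stage where it had reads, and limma and edgeR called 0 of the 10 other members. DESeq2 called 2 of them, osa-miR162a_R+2 and rco-MIR162-p5, and 4 of the 11 had an unadjusted p under 0.05 in limma, as did 14% of all entries. The libraries of 3 members did not overlap, all lower in PF_Z, where 9.59% of all tested entries lay lower without overlap. From PF_Z to PF_D limma called 0 of 11 where 3.67% of all entries were called, edgeR and DESeq2 also called 0, and 5 had an unadjusted p under 0.05 (3 higher and 2 lower), as did 19.5% of all entries. Without overlap, 2 members lay higher, where 9.59% of all entries did, and 2 lower, where 10.4% of all entries did.

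From PF_L to PF_D, 3 of 11 members were called, all lower (osa-miR162a_R+2, bra-miR168a-3p and htu-miR403a), where 16.3% of all tested entries were called and 8.17% were called lower. Without bra-miR168a-3p, which passed the filter through PF_L alone, 2 of 10 were called, and neither count is read as a result about the members. With equal totals rco-miR162 was called lower as well, and with valid reads mdm-miR168a and csi-miR168-3p were called higher and htu-miR403a was not called. Among the 3 members called on the deposited values, only osa-miR162a_R+2 had more than 5 reads in a library. The libraries of 4 members lay lower without overlap, where 20.5% of all entries did. The median log2 fold change of the 11 members was -0.41, 0.25 and -0.21 in the order PF_L to PF_Z, PF_Z to PF_D and PF_L to PF_D, and that of all 1554 tested entries was -0.09, -0.15 and -0.28.

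**Figure D4:**
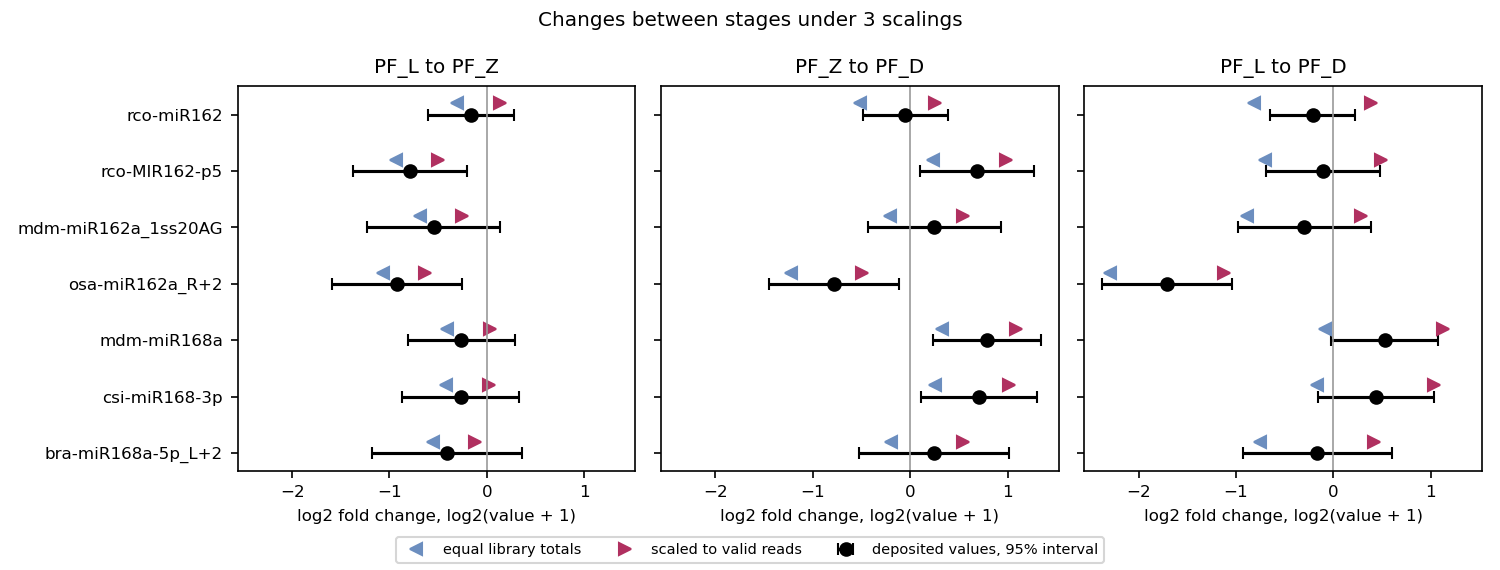
Log2 fold changes on the log2(value + 1) scale (x axis) of the 7 members with reads in all libraries (rows) in the 3 comparisons (panels). Black points and bars are the deposited values with 95% intervals. Triangles are the same values with libraries scaled to equal totals over all 1876 lines, repeated lines included, or to valid reads. osa-miR162a_R+2 lies left of 0 under every scaling shown, while every other member shown lies on both sides of 0 between PF_L and PF_D.

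By Pearson's r on log2(value + 1) over the 9 libraries, among tested sequences of other families with a mean of at least 50, those most like mdm-miR168a were peu-MIR2916-p3_2ss9TC20GA (r = 0.87), mdm-miR166a (0.85) and mdm-miR166a_1ss21CA (0.83). Those most like rco-miR162 were mdm-miR166a_L+1R-1 (0.83), gra-MIR482-p3_1ss20TG (0.82) and mdm-miR482b_2ss11CT20TC (0.73). Those most like htu-miR403a were gma-miR394b-3p_R+1_1ss15TC (0.96), csi-miR160a-3p (0.95) and mdm-miR390a (0.93), with the value of htu-miR403a resting on 0 to 4 reads per library. The libraries share 1 scaling factor each, and these are the highest of 166 to 169 candidates.

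Other miRNA families are tied to the silencing machinery itself or to secondary siRNAs, the small RNAs made from a cleaved transcript. Of the 10 such families looked up, miR173, miR472, miR838 and miR1515 had no entry. The other 6 were present, with 74 tested sequences. From PF_L to PF_D 10 of them rose and 7 fell, where 8.11% of all tested entries rose and 8.17% fell. From PF_Z to PF_D 3 rose and 1 fell, where 3.67% of all entries were called, and from PF_L to PF_Z 1 rose and 1 fell, where 1.16% were called. The rises lay mostly in miR393, which targets the auxin receptor transcripts and rose in 6 of 7 tested sequences from PF_L to PF_D. In miR390, the trigger of TAS3 siRNAs that works with AGO7, 1 of 5 rose and 2 fell in that comparison, and in miR482, which targets transcripts of NLR resistance proteins, 2 of 40 rose and 5 fell. In miR2118, which also targets NLR transcripts, 1 of 10 rose, and none of the 4 tested sequences of miR828, the TAS4 trigger, and of the 8 of miR2275, a trigger of phased siRNAs in grass anthers, was called in any comparison. Transcripts of DCL1, AGO1 and AGO2 were not analysed here.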

How the data were processed

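Small RNAs of petals from 3 stages, with 3 biological replicates each, were sequenced as 50-bp single-end reads. With ACGT101-miR the authors filtered out adapter dimers, junk, repeats and reads of common RNA families, kept sequences of 18 to 25 nucleotides and searched them against miRBase 22. The labels name Trizol for the RNA extraction and the methods CTAB. The deposited signal is a normalized read number per miRNA and library, whose formula is not given in the sources used here.

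Of 1876 lines, 173 that repeat another line were left out, which left 1703. Within a tolerance of 0.01 read, 97.9% to 99.0% of a library's values above 0 were whole or half-step multiples of the value of 1 read. PF_L replicate 3 and PF_Z replicate 1 held smaller steps. Recovered reads were rounded. There were no molecular identifiers, so floors account for counting error alone.

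Stages were compared on the log2(value + 1) scale with limma 3.58.1 in R 4.3.3, whose prior followed the mean, in 1 two-sided fit of all 9 libraries with Benjamini-Hochberg adjustment over 1554 entries. The procedure was tested on simulated data, with changes set only in entries with a mean of at least 5 reads. It was thus not tested for changes in the scarce members. Alternatives were pseudocounts of 0.5 and 5, no filter, a mean of at least 5, median-of-ratios scaling, equal totals, valid reads, the compared stages alone, a replicate block, 1 line per sequence, edgeR 4.0.16, DESeq2 1.42.0 and leaving out each library. Equal totals use the values of all 1876 lines, so repeated lines and sequences under several names count more than once. Equal totals with each sequence counted once were not tried. The valid reads were taken from the study's supplement. Ratios within a library were compared by an exact permutation test over 1680 regroupings of log2 of the ratio of values plus 1. Of these, the strand ratios were planned and the other 4 were chosen after their values were seen. A single comparison of stages cannot go below p = 0.1 in an exact permutation test.

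The text describes the most abundant sequence of each family and strand, every member called and every member with a mean of at least 50 at a stage, and bra-miR168a-5p_L+2 and the scarce members besides, chosen after their values were seen. The members, lists and comparisons were chosen with earlier results of these data known. Python 3.11.15, numpy 2.4.6, pandas 2.3.3 and matplotlib 3.10.9 were used. Target transcripts, precursors and genome positions were not analysed here.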

Additional observations from a re-analysis of the deposited data

How the results depend on the processing

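The fall of osa-miR162a_R+2 from PF_L to PF_D kept its call under every alternative run, with a log2 fold change of -1.90 to -1.60 when single libraries were left out and of -2.30 to -1.12 over the scalings. From PF_L to PF_Z, where 1 member was called, 0 were called with a mean of at least 5, with the compared stages alone and with edgeR, 2 with DESeq2, and 0 to 1 without single libraries. From PF_Z to PF_D, 0 to 2 were called without single libraries. From PF_L to PF_D, where 3 were called, 1 was called with a mean of at least 5, 1 with DESeq2, and 2 to 3 without single libraries, while 4 were called with equal totals (all lower) and 4 with valid reads (2 higher and 2 lower). DESeq2 gave no adjusted p for bra-miR168a-3p, htu-miR403a, aau-miR168_L-3R+1_1ss23TC and csi-MIR162-p3_2ss5TG17CT, and a mean of at least 5 leaves these untested. The F of the miR162 strand ratio was 6.42, and 4.71 to 8.92 without single libraries, with adjusted p of 0.0286 to 0.136 in the exact test. Family totals had a log2 fold change of -0.19, -0.04 and -0.23 for miR162 (PF_L to PF_Z, PF_Z to PF_D, PF_L to PF_D) and -0.27, 0.73 and 0.46 for miR168. With equal totals, miR162 gave -0.51 from PF_Z to PF_D and -0.84 from PF_L to PF_D, and miR168 gave 0.31 and -0.15. With valid reads, miR162 gave 0.12, 0.24 and 0.36 in the 3 comparisons, and miR168 gave 1.09 from PF_L to PF_D. For both families the scalings differ in the factor given to each library, which adds nearly the same shift to all its members.

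Over all tested entries, deviations from the stage means correlated at -0.02 to 0.12 in 9 pairs of libraries with the same replicate number. In 18 other pairs the correlation was -0.11 to 0.10. Many of these entries are scarce, so these values cannot decide whether replicate numbers pair the libraries. A fit with the replicate number as a block called 1, 0 and 3 members in the 3 comparisons, as without it. Depth limits 7 members with at most 5 reads per library, for which a value of 0 and a value of 1 differ by a single read.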

Other observations

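bra-miR168a-3p was among 14 of 1703 entries (0.822%) that had reads in all 3 PF_L libraries and in no other library. Of 4 entries named after field mustard (bra) without a suffix 2 had this pattern, and of 5 with a suffix 1 had it. The pattern was looked up after the values of bra-miR168a-3p were seen.

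The 18 bases that aau-miR168_L-3R+1_1ss23TC shares with the reverse complement of csi-miR168-3p are shown in capitals in both.
aau-miR168_L-3R+1_1ss23TC: CAGTTGATGCAAGGCGGGaccc
csi-miR168-3p: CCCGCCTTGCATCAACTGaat
The first had 6 reads in all libraries together and the second 29124.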
